A study of Homo sapiens with 10 samples.

Results

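Metallothioneins and the zinc exporter SLC30A1 (ZnT1) were followed in TPC-1 cells, a human line established from papillary thyroid carcinoma. The genes were chosen by name (MT2A, MT1A, MT1E, MT1F, MT1G, MT1M, MT1X and SLC30A1), and all 8 were found among the 58735 genes of both deposited count tables. The choice was made with results of these data in view, from the levels of these genes and their changes between groups, sets and replicate numbers. Their values below are therefore descriptions with their errors. Where a member passed or missed the threshold of a fit across all genes, the count stands beside the share of all genes called and supports nothing about the member. The cells carried a vector for overexpression of the long non-coding RNA PTCSC3-AS1 (OE, n = 5) or an empty vector (EV, n = 5), and total RNA was sequenced in paired ends. Replicates 4 and 5 of each group form the second set and replicates 1 to 3 the first set, named for the 2 tables in which they were deposited. The sources used here do not say what else separates the sets or whether replicates were separate cultures, so each error covers the spread among libraries, part of which may be technical.

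Metallothioneins are small cysteine-rich proteins that bind zinc, copper and cadmium, and SLC30A1 carries zinc out of the cell across the plasma membrane. Free zinc activates the transcription factor MTF1, which binds metal response elements in the promoters of metallothionein genes and of SLC30A1, so that storage and export of zinc respond to the metal itself. MT2A and several MT1 genes also respond to glucocorticoids and to oxidative stress. The functional MT1 and MT2 genes of humans lie in 1 cluster on chromosome 16.

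Promoters of the members are shown where one was found, because the metal response element is the sequence these genes are known for. RefSeq promoters (GRCh38.p14, 250 bases before to 50 bases after the start) were found for 3 of the 8 members. The promoter set used held no entry for the others. The 3 are also the members above the count filter of the fits of OE against EV. Capitals mark each match to the core letters TGCACNC or TGCGCNC on either strand, so a match on the other strand reads as its reverse complement.
MT2A: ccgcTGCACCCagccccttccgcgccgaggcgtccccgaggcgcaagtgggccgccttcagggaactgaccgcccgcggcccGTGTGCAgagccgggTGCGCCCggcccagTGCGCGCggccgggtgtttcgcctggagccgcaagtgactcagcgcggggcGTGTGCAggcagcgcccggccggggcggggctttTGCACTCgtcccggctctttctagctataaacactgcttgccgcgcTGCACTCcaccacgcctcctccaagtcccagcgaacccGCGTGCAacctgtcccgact
MT1X: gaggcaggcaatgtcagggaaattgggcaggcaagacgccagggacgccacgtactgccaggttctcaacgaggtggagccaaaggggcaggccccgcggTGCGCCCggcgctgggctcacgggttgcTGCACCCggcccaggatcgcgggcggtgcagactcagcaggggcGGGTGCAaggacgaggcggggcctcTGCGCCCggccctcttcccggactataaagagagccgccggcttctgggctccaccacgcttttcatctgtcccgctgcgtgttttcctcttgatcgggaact
SLC30A1: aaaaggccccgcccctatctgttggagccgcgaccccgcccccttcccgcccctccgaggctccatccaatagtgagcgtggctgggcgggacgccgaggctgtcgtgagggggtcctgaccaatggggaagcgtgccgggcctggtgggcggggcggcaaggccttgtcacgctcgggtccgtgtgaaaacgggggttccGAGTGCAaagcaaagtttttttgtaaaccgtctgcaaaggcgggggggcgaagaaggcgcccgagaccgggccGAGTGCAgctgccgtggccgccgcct
The MT2A window is chr16:56608334-56608633 on the plus strand and holds 8 core matches. The MT1X window is chr16:56682220-56682519 on the plus strand and holds 4. The SLC30A1 window is chr1:211579112-211579411 on the minus strand and holds 2. Among 35116 promoters of this length, 0.0199% hold as many cores as MT2A or more, 0.601% as many as MT1X or more, and 8.60% as many as SLC30A1 or more. At least 1 core stands in 29.6% of them. MT2A and MT1X also hold the letters TATAAA on the plus strand, with the first T at -29 and -30 from the start, as do 7.33% of the promoters, and these letters are not in the SLC30A1 window. The matches describe letters and were not tested as binding sites.

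The depth was 15761474 to 18066559 counts per library (20630 to 22029 genes with a count), so that 3 counts, the limit a count of 0 allows, equalled 0.167 to 0.194 CPM. CPM are counts scaled by the TMM-adjusted library size, and this limit covers counting error only. The 6 thyroid lineage markers summed to 404 to 507 CPM in OE libraries and 374 to 459 CPM in EV libraries, with NKX2-1 and TSHR at 0 in all 10. Of these 6, 2 passed the count filter of the fit over both sets, so the sum does not show each marker expressed. The 4 liver and kidney markers, of cell types that make much metallothionein, summed to at most 0.297 CPM in OE and 0.281 CPM in EV libraries, and the 5 leukocyte markers to 0.524 to 1.37 CPM in OE and 0.281 to 1.48 CPM in EV libraries. The level of PTCSC3-AS1 was not analysed here, so the OE labels were not checked against it.

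In these cells 1 gene carried almost all of the metallothionein signal. MT2A (ENSG00000125148, hg38 chromosome 16, 56608199 to 56609497, plus strand) had 173930 counts over the 10 libraries. It held 97.3% to 98.1% of the counts of the 21 metallothionein genes and pseudogenes in the tables, with a median of 97.9%. It stood at rank 43 to 144 of all genes by count, and at rank 19 to 42 by count per deposited gene length. Of the 21 genes, 13 had 0 counts in all 10 libraries.

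MT1A (ENSG00000205362, 56638666 to 56640087, plus strand), MT1M (ENSG00000205364, 56632233 to 56633986, plus strand) and MT1G (ENSG00000125144, 56666731 to 56668065, minus strand) were among those with 0 counts. MT1B, MT1H, MT1HL1, MT1CP, MT1DP, MT1IP, MT1JP, MT1P3, MT3 (known from brain) and MT4 (known from squamous epithelium) were the other 10. MT1E (ENSG00000169715, 56625475 to 56627112, plus strand) had 3 counts, all in OE replicate 4, or 0.178 CPM there with an exact Poisson interval of 0.0367 to 0.520 CPM for counting error. These genes were not detectable at this depth beyond those counts. No OE and EV level of the 4 can be compared.

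MT1F (ENSG00000198417, 56657694 to 56660698, plus strand) gave 54 counts, of which 27 came from OE and 27 from EV libraries. Its levels were 0.627, 0.111, 0.114, 0.415 and 0.291 CPM in OE replicates 1 to 5, against 0.113, 0.0645, 0.424, 0.744 and 0.255 CPM in EV replicates 1 to 5. The groups overlapped over nearly their whole range. The summed counts gave 0.204 to 0.451 CPM in OE and 0.215 to 0.474 CPM in EV libraries as exact Poisson intervals. MT1F was the most abundant member below the count filter of the fits of OE against EV, with a mean of 0.316 CPM over all libraries. MT1X was the least abundant member above the filter, with 3.14 CPM.

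MT1X (ENSG00000187193, 56682424 to 56684196, plus strand) had 531 counts. SLC30A1 (ENSG00000170385, chromosome 1, 211571568 to 211578742, minus strand) had 27804. Counts and CPM set side by side for different genes elsewhere are not scaled for length. Gene lengths are those deposited and are not of one kind. Those of MT2A (1299 bases) and MT1X (1773) equal the whole span of the gene. Those of SLC30A1 (5474), MT1F (1889) and the pseudogene MT1L (411) are shorter than the span. Levels and ranks per length depend on these lengths. Per kilobase of deposited gene length, MT2A had a level of 535 to 1355 CPM per kb across the 10 libraries. SLC30A1 followed with 24.7 to 33.7, MT1X with 0.820 to 3.75 and MT1F with 0.0342 to 0.394 CPM per kb. The ranges of these neighbours in the order did not overlap. MT1E, at 0.169 CPM per kb in its single library with counts, lay inside the range of MT1F.

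**Figure D1:**
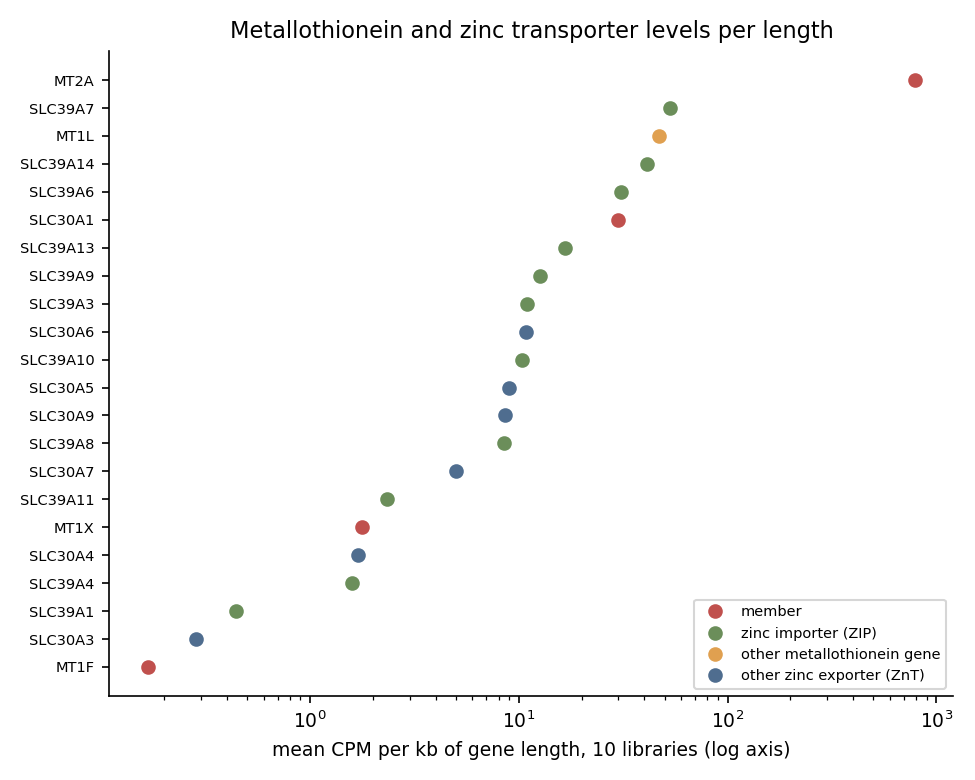
Mean level of each metallothionein and zinc transporter with counts in all 10 libraries, as CPM per kb of deposited gene length over 10 libraries (log axis), coloured by gene group. Some of these lengths, as that of MT2A, are whole gene spans. MT2A stands at 791 CPM per kb, far to the right of SLC39A7 at 52.8, MT1L at 46.9 and SLC30A1 at 29.8.

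Near-identical copies make some of these counts uncertain. Of the 31-base stretches in the GENCODE 29 transcripts of each gene, 7.25% in MT2A, 19.8% in MT1X, 3.25% in MT1F, 15.6% in MT1E, 23.8% in MT1M, 23.3% in MT1G and 18.9% in MT1A also stood in another gene, and 0% in SLC30A1. For MT1X the partner was mostly AC026461.1, an overlapping gene on the same strand with 0 counts. Counts of the MT1 genes are uncertain to the extent that reads from such stretches were split or dropped. The sources used here do not say how multiply mapped reads and strand were handled.

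The overexpression comparison asks whether PTCSC3-AS1 RNA moved the zinc storage and export genes. MT2A levels in OE replicates 1 to 5 were 1210, 1108, 1016, 1123 and 702 CPM, against 932, 1760, 960, 765 and 695 CPM in EV replicates 1 to 5. EV replicate 2 was the highest library and EV replicate 5 the lowest, so the OE libraries lay inside the EV range. The means were 1032 ± 197 CPM in OE and 1022 ± 427 CPM in EV cells (SD, n = 5 each). Without EV replicate 2 the EV mean was 838 ± 129 CPM (SD, n = 4).

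SLC30A1 levels in OE replicates 1 to 5 were 169, 162, 169, 141 and 135 CPM, against 180, 161, 181, 185 and 150 CPM in EV replicates 1 to 5. OE replicates 5 and 4 were the lowest of the 10 libraries, and the groups overlapped. The means were 155 ± 15.8 CPM in OE and 171 ± 15.1 CPM in EV cells (SD, n = 5 each).

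MT1X levels in OE replicates 1 to 5 were 2.45, 1.61, 1.94, 6.65 and 3.55 CPM, against 1.69, 2.65, 1.45, 5.67 and 3.70 CPM in EV replicates 1 to 5. In both groups replicates 4 and 5 were the high ones. The means were 3.24 ± 2.04 CPM in OE and 3.03 ± 1.72 CPM in EV cells (SD, n = 5 each).

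**Figure D2:**
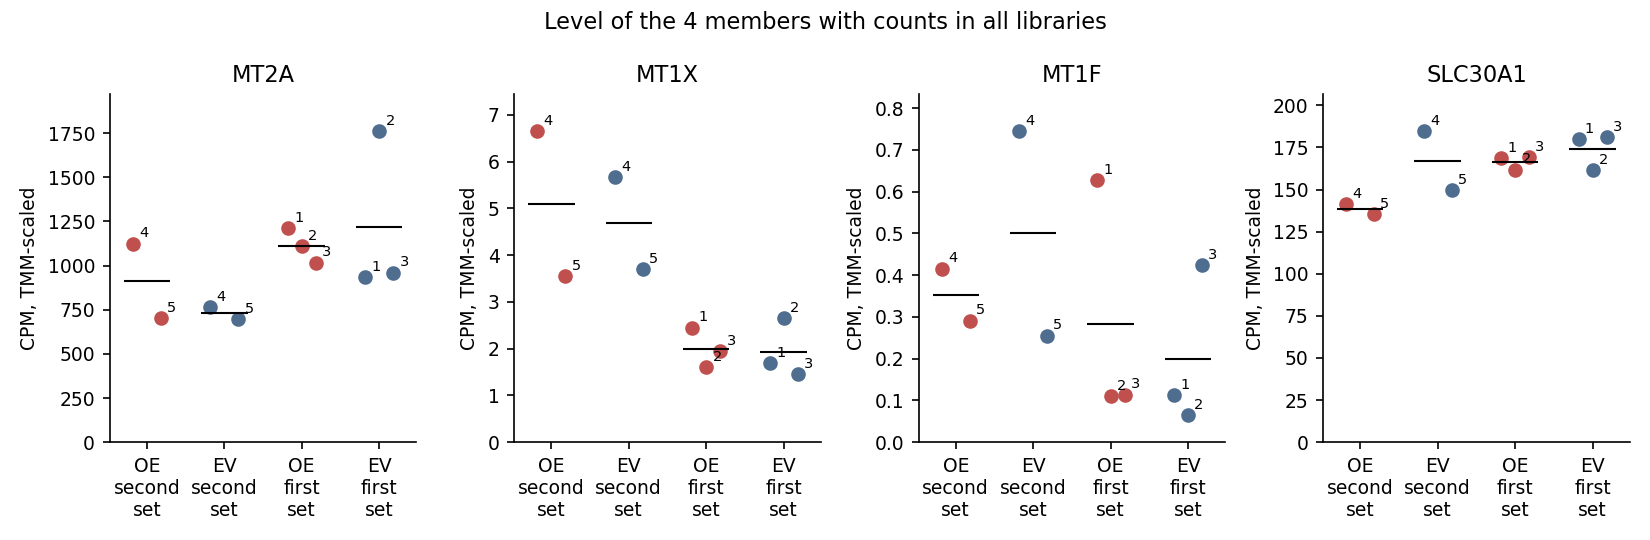
Level in TMM-scaled CPM of the 4 members with counts in all libraries, by group and set; each point is a library with its replicate number and the bar is the mean of the group in that set. EV replicate 2 stands at 1760 CPM of MT2A, and all 4 second-set libraries lie above the 6 first-set libraries for MT1X.

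Over both sets, with the set as a term, the log2 change of OE over EV was 0.05 for MT2A (SE 0.17, 95% interval -0.32 to 0.42). It was 0.09 for MT1X (SE 0.24, -0.44 to 0.61) and -0.15 for SLC30A1 (SE 0.07, -0.31 to 0.01). All 3 intervals included 0. The estimate of MT2A depended on single libraries, at 0.28 (SE 0.10) without EV replicate 2 and -0.11 (SE 0.16) without OE replicate 4. That of MT1X was 0.23 (SE 0.24) and -0.11 (SE 0.26) without the same libraries. None of the 3 members tested had an adjusted p under 0.05 by the quasi-likelihood test of edgeR, where 0.0% of 14217 genes were called. At an unadjusted p under 0.05 that fit held 812 genes and 0 members, and DESeq2 called 6 genes and limma-voom 0, with 0 members in each.

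In the second set the log2 change was 0.33 for MT2A (SE 0.20, -0.15 to 0.80), 0.12 for MT1X (SE 0.37) and -0.27 for SLC30A1 (SE 0.11, -0.54 to -0.0015), with n = 2 per group. In the first set it was -0.14 for MT2A (SE 0.22, -0.62 to 0.35), 0.05 for MT1X (SE 0.33) and -0.07 for SLC30A1 (SE 0.09), with n = 3 per group. The estimates of MT2A had opposite signs in the sets and those of SLC30A1 the same sign. No member was called in either set, where edgeR called 0.0% of 14419 genes in the second set and 0.0349% of 14340 in the first. At an unadjusted p under 0.05 the second-set fit held 158 genes, SLC30A1 among them, and the first-set fit 1268 genes and 0 members. DESeq2 called 1 gene in the second set and 76 in the first set, and limma-voom 0 and 4, with 0 members in each. None of these fits paired libraries. With the replicate number as a block, edgeR called 71 genes in the second set, MT2A and SLC30A1 among them, on 1 residual degree of freedom. The members were chosen on such values, so that call supports nothing about them.

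The difference between the sets, second minus first, was 0.46 for MT2A (SE 0.34), -0.20 for SLC30A1 (SE 0.15), 0.07 for MT1X (SE 0.50) and -0.98 for MT1F (SE 1.32), which passed the filter of this fit. None of these 4 was called, beside 0.00649% of 15404 genes. DESeq2 called 9 genes and limma-voom 1 for this difference, with 0 members, and 558 genes and 0 members had an unadjusted p under 0.05. The sign of MT2A in the first set rested on 1 library. Without EV replicate 2, the log2 change of MT2A there was 0.23 (SE 0.07) and passed the threshold, as did 10.7% of 14769 genes in that fit, and the difference between the sets was 0.09 (SE 0.20).

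The authors' deposited table compares single libraries of the second set. Its log2 fold change of OE replicate 4 over EV replicate 4 was 0.56 for MT2A, 0.24 for MT1X, -0.38 for SLC30A1 and -0.82 for MT1F. In the authors' deposited table, OE replicate 5 over EV replicate 5 stood at 0.02 for MT2A, -0.05 for MT1X, -0.14 for SLC30A1 and 0.19 for MT1F. These pairs of libraries have no replicates. In the edgeR fit of the second set without OE replicate 4, the log2 change of MT2A was -0.05 (SE 0.12).

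**Figure D3:**
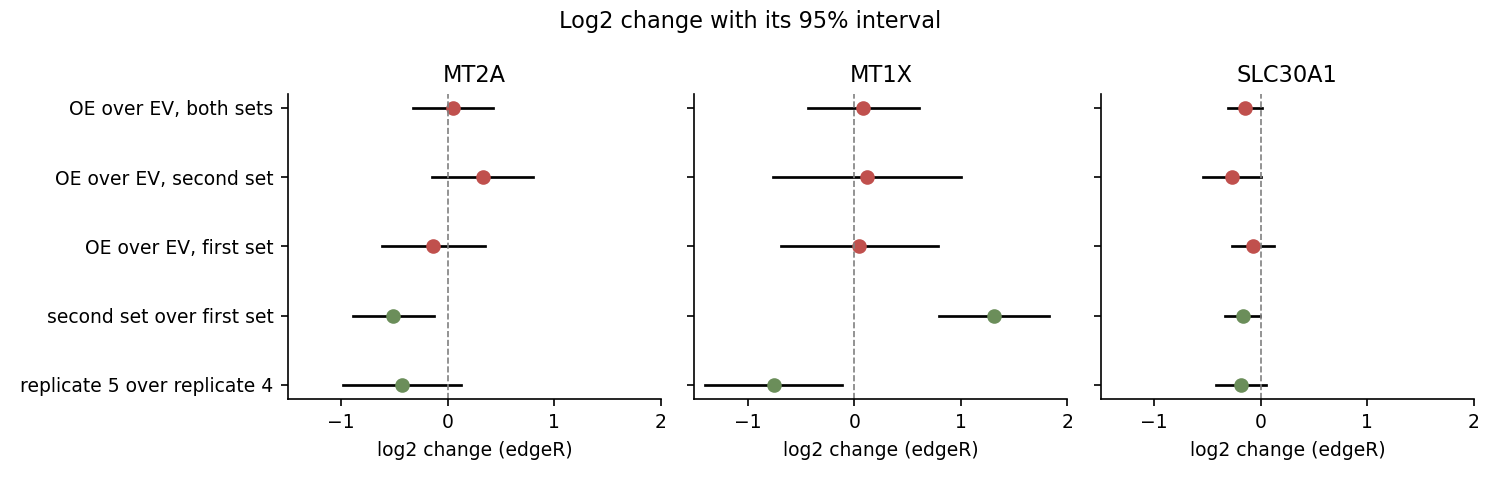
Log2 change from edgeR (point) with its 95% interval (line) for the 3 members tested, in 5 comparisons; red points are OE over EV and green points compare sets or replicate numbers. Intervals of OE over EV include 0 for MT2A and MT1X, and the interval of MT1X for the second set over the first set runs from 0.80 to 1.83.

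Between the sets the members did not share 1 direction, with MT1X higher and MT2A and SLC30A1 lower on average in the second set. MT1X was at 6.65 and 3.55 CPM in OE and 5.67 and 3.70 CPM in EV replicates 4 and 5 of the second set, against a lowest of 1.45, a median of 1.81 and a highest of 2.65 CPM in the 6 first-set libraries. The sets did not overlap, and in both OE and EV cells the second-set libraries were the higher ones. The means were 4.89 ± 1.52 CPM in the second set (SD, n = 4) and 1.96 ± 0.483 CPM in the first set (SD, n = 6), a log2 change of 1.31 (SE 0.24, 0.80 to 1.83). In bulk RNA, fewer cells with the transcript and less of it per cell cannot be told apart.

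MT2A was at 1123 and 702 CPM in OE and 765 and 695 CPM in EV replicates 4 and 5 of the second set, against a lowest of 932, a median of 1062 and a highest of 1760 CPM in the first set. OE replicate 4 was the second-set library that reached into the range of the first set. The means were 821 ± 204 CPM in the second set (SD, n = 4) and 1164 ± 309 CPM in the first set (SD, n = 6), and the log2 change was -0.51 (SE 0.18, -0.89 to -0.13). SLC30A1 averaged 153 ± 22.0 CPM in the second set and 170 ± 8.49 CPM in the first set, with a log2 change of -0.17 (SE 0.08). MT1F had 29 counts in the 4 libraries of the second set and 25 in the 6 of the first set. The means were 0.427 ± 0.223 CPM in the second set (SD, n = 4) and 0.242 ± 0.229 CPM in the first set (SD, n = 6). Exact Poisson intervals of the summed counts were 0.289 to 0.620 and 0.157 to 0.359 CPM, for counting error only. Single libraries of the sets overlapped.

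Of the 3 members in the fit between the sets, 1 passed the threshold of edgeR, MT1X, beside 17.8% of 14881 genes, 8.63% higher and 9.13% lower. Nothing is read from this count, since the same values chose the members. Without EV replicate 2 all 3 passed it, with log2 changes of 1.44 for MT1X (SE 0.24), -0.33 for MT2A (SE 0.10) and -0.20 for SLC30A1 (SE 0.06), beside 25.9% of genes. MT2A also passed it without EV replicate 3 (-0.56, SE 0.18) and without OE replicate 4 (-0.71, SE 0.17), the latter beside 1707 genes called. Fits with 1 library left out called 1297 to 3837 genes, against 2642 in the main fit. With any 1 of the 10 libraries left out, the log2 change of MT1X was 1.11 to 1.47. In EV libraries alone it was 1.29, short of the threshold.

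Within the second set, MT1X averaged 3.63 CPM in the libraries numbered 5 and 6.16 CPM in those numbered 4. MT2A averaged 698 CPM in the libraries numbered 5 and 944 CPM in those numbered 4, and SLC30A1 143 CPM in those numbered 5 and 163 CPM in those numbered 4. The log2 change of replicate 5 over replicate 4 was -0.76 for MT1X (SE 0.30, -1.40 to -0.12), -0.43 for MT2A (SE 0.26, -0.98 to 0.13), -0.18 for SLC30A1 (SE 0.11) and -1.07 for MT1F (SE 0.96). All 4 estimates lay below 0 and none was called by edgeR, beside 0.688% of 15404 genes. With the 4 libraries of the second set alone, the log2 change of MT2A was -0.41 (SE 0.05). The fit given first kept the 6 first-set libraries, so its errors include their spread. At an unadjusted p under 0.05 that fit of 10 libraries held 1508 genes, MT1X among them, and DESeq2 called 231 and limma-voom 99, with 0 members in each.

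MT1L, annotated as a pseudogene of the cluster, was the only other metallothionein above the filter. Its levels in OE replicates 1 to 5 were 22.4, 21.5, 19.6, 17.2 and 14.8 CPM, against 19.1, 31.4, 18.2, 14.1 and 14.5 CPM in EV replicates 1 to 5. EV replicate 2 was again the highest library, and the second-set libraries were the lowest in each group. MT1L counts were 1.53% to 2.10% of those of MT2A in every library, and the 2 genes share 0% of their 31-base stretches. MT1L shares 16.3% of its stretches with other genes, most of all MT1P3, so its own count is uncertain to that extent. MT1X counts were 0.145% to 0.741% of those of MT2A.

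MT1L fell in the second set against the first set, to 15.1 ± 1.41 CPM (SD, n = 4) against 22.0 ± 4.84 CPM (SD, n = 6), a log2 change of -0.54 (SE 0.14, edgeR adjusted p = 0.0200). Its log2 change of OE over EV was -0.0045 (SE 0.14) over both sets, with a sign that turns under limma-voom, without a count filter and when any of 4 libraries is left out. Of the other pseudogenes, MT2P1 had counts in 9 libraries, MT1P1 in 5 and MT1XP1 in 4, all at low level.

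The genes whose library profile was most like that of MT2A were ranked. Among 12089 other genes with a mean log2 CPM of at least 1, likeness was the root mean square difference of log2 CPM, centred on each gene's mean over the 10 libraries. The 5 nearest were RPL37A (0.09) and RPS27 (0.09), both ribosomal proteins, the pseudogene RPL7AP6 (0.11), UQCRQ (0.12), a subunit of respiratory complex III, and SLIRP (0.12), a mitochondrial RNA-binding protein. The median of all genes ranked was 0.43. MT1L stood at rank 10 (0.13), SLC30A1 at rank 4417 (0.39) and MT1X at rank 12009 (0.88).

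These profiles share the same libraries, and 1 of them weighs most. In EV replicate 2, log2 CPM lay above the gene's own mean by 0.83 for MT2A, 0.85 for RPL37A, 0.80 for RPS27 and 0.74 for MT1L, while SLC30A1 lay at -0.01 and MT1X at -0.06. The 3555 shortest genes tested (25% of them, up to 2858 bases) had a median deviation of 0.23 in that library, against -0.10 to 0.09 in the other 9. Of the genes just named, MT2A (1299 bases), MT1X (1773), MT1L (411) and RPS27 (1035) are among the short genes. By deposited gene length SLC30A1 (5474 bases) and RPL37A (6841) are not, but that length need not be the length of the RNA sequenced. The part of gene length in the MT2A values was not tested.

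**Figure D4:**
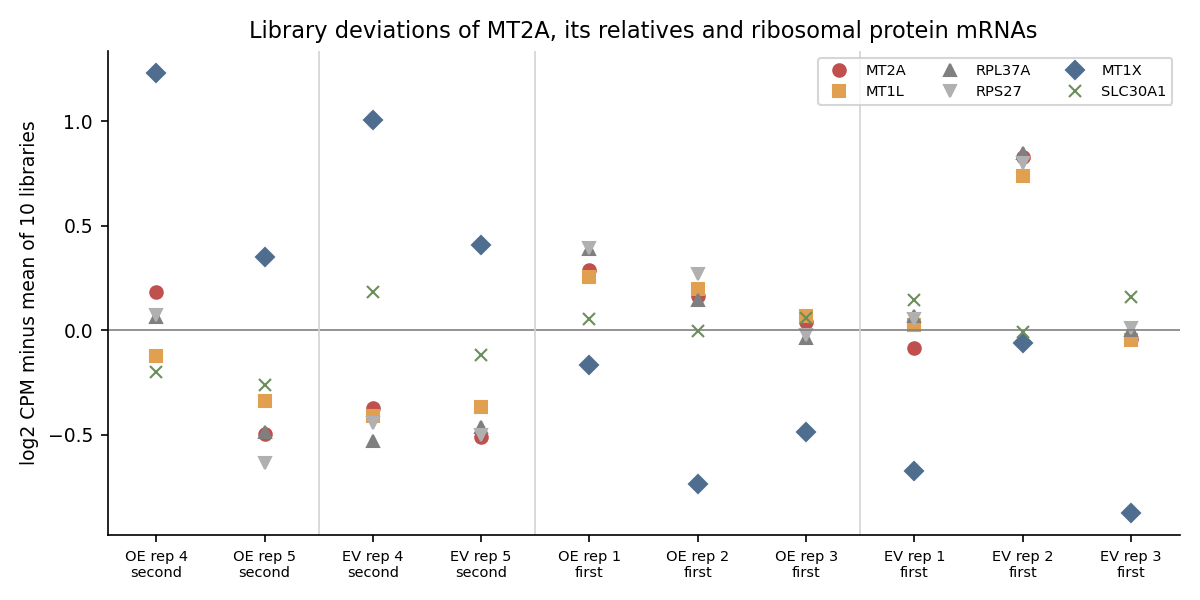
Deviation of log2 CPM from the gene's mean over the 10 libraries for MT2A, MT1L, MT1X, SLC30A1 and 2 ribosomal protein genes; each column is a library, with its set below it. MT2A, MT1L, RPL37A and RPS27 lie at 0.74 to 0.85 in EV replicate 2, where SLC30A1 and MT1X lie near 0, and MT1X is highest in the libraries numbered 4.

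The wider zinc system was read from lists of transporters, metal sensors and stress genes. Over both sets, 0 genes of these lists were called by edgeR, DESeq2 or limma-voom in OE against EV cells. SLC7A11 and HERPUD1 were the list genes with an unadjusted p under 0.05. Median log2 changes of the lists over both sets lay between -0.07 and 0.03, beside -0.0028 for all genes tested. In the first set alone DESeq2 called 1 of 12 stress genes and 1 of 7 genes beside the cluster, where it called 76 genes in all. There edgeR and limma-voom called 0 list genes.

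Of 9 other genes of the ZnT exporter family, most of which move zinc out of the cytosol, 6 were tested. Their median log2 change in OE against EV cells was -0.06, with 1 above and 5 below 0. SLC30A9, a mitochondrial zinc transporter, had -0.12 (SE 0.07), SLC30A7, of the Golgi, -0.13 (SE 0.10) and SLC30A3, of synaptic vesicles, 0.32 (SE 0.27). SLC30A2, SLC30A8 and SLC30A10 had 0 counts in all libraries. SLC30A1 had the highest level per length of this family, 29.8 CPM per kb, followed by SLC30A6 with 10.8.

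Of 14 ZIP importers, which bring zinc into the cytosol, 11 were tested, with a median of 0.03 in OE against EV cells and 6 above and 5 below 0. SLC39A7, which releases zinc from the endoplasmic reticulum, had 0.14 (SE 0.08), SLC39A13 0.12 (SE 0.08) and SLC39A9 -0.06 (SE 0.07). Per length SLC39A7 (52.8 CPM per kb), SLC39A14 (41.1) and SLC39A6 (30.8) stood above SLC30A1. SLC39A8, a carrier of zinc and manganese, rose in the second set to 62.1 ± 3.25 CPM, against 50.6 ± 2.10 CPM in the first set (SD, n = 4 and 6, log2 change 0.29, SE 0.07, edgeR adjusted p = 0.00974). Between the sets edgeR and limma-voom called 1 ZIP gene each and DESeq2 2. Of the 6 ZnT genes, 0 were called there by edgeR, DESeq2 or limma-voom, nor had any an unadjusted p under 0.05.

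MTF1, the zinc-sensing activator of metallothionein genes, averaged 31.4 CPM in OE and 31.5 CPM in EV cells, with a log2 change of -0.0049 (SE 0.14). Its list of metal sensors and copper handlers had 13 of 16 gene entries tested, with a median of -0.01 in OE against EV cells and 5 above and 8 below 0. SLC11A2, an importer of divalent metals, had 0.12 (SE 0.08), SCO1, a copper chaperone of cytochrome oxidase, -0.10 (SE 0.06) and MTF2, a Polycomb protein, -0.07 (SE 0.07). MTF2 rose in the second set against the first set (0.26, SE 0.07, edgeR adjusted p = 0.0170). Of its list edgeR and limma-voom called 1 gene each between the sets and DESeq2 2.

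Glucocorticoid targets were listed because MT2A is one. In OE against EV cells 10 of 12 genes were tested, with a median of -0.01 and 5 on each side of 0. CEBPD, a transcription factor, had 0.16 (SE 0.11), ERRFI1, an inhibitor of the EGF receptor, -0.10 (SE 0.08) and ANGPTL4, an inhibitor of lipoprotein lipase, 0.09 (SE 0.08). Between the sets the list did not move one way. FKBP5, a co-chaperone of the receptor, rose in the second set (0.51, SE 0.08, edgeR adjusted p = 0.000939), while the kinase SGK1 (-0.72, SE 0.16, adjusted p = 0.00808) and the clock gene PER1 (-0.53, SE 0.16, adjusted p = 0.0364) fell there. The median of the list between the sets was -0.21.

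All 12 listed genes of the response to metal and oxidative stress were tested in OE against EV cells, with a median of -0.07, 5 above and 7 below 0. SLC7A11, the cystine importer that feeds glutathione synthesis, had -0.37 (SE 0.12), HSPA1B, an inducible HSP70, 0.14 (SE 0.11) and GCLM, of glutathione synthesis, -0.08 (SE 0.07). The sets differed for SLC7A11, which averaged 29.4 CPM in OE and 45.1 CPM in EV cells of the first set, and 40.1 and 39.9 CPM in the second set. The median of the list was -0.12 in the first set, with 4 above and 8 below 0, and 0.03 in the second set, with 8 above and 4 below 0. Between the sets 7 of the 12 were called by edgeR, 1 higher and 6 lower in the second set, beside 17.8% of all genes called, 8.63% higher and 9.13% lower. The list's median was -0.23, beside -0.0063 for all genes tested. HMOX1, the haem oxygenase induced by many metals, fell to 363 ± 69.7 CPM in the second set, against 976 ± 177 CPM in the first set (SD, n = 4 and 6, log2 change -1.42, SE 0.15, adjusted p = 6.65e-05). In OE and EV cells HMOX1 averaged 847 and 1106 CPM in the first set, and 418 and 309 CPM in the second set.

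The chaperones HSPA1B (-0.94, SE 0.12), HSPA1A (-0.83, SE 0.24), DNAJB1 (-0.68, SE 0.08) and HSPH1 (-0.49, SE 0.07) and the quinone reductase NQO1 (-0.26, SE 0.08) fell in the second set, with edgeR adjusted p of 7.97e-05 to 0.0387. HSPA1A and HSPA1B are near-identical copies, so their split is uncertain. SRXN1, which repairs peroxiredoxins, rose in the second set (0.72, SE 0.16, adjusted p = 0.00891), the direction that MT1X showed. MT2A and MT1L lay lower there, as HMOX1 did. In likeness of library profile to MT2A, however, HMOX1 stood at rank 10816 of 12089 (0.59, beside a median of 0.43).

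Beside the cluster on chromosome 16, 7 of 9 listed neighbours were tested in OE against EV cells, with a median of 0.01 and 4 above and 3 below 0. HERPUD1, of protein degradation at the endoplasmic reticulum, had -0.22 (SE 0.07), GNAO1, a G protein subunit, 0.30 (SE 0.34) and NUDT21, of mRNA cleavage, -0.05 (SE 0.06). HERPUD1 averaged 88.3 CPM in OE and 112 CPM in EV cells of the first set, and 103 and 107 CPM in the second set. In the second set GNAO1 (1.16, SE 0.34, edgeR adjusted p = 0.0292) and the nucleoporin NUP93 (0.25, SE 0.06, adjusted p = 0.0148) rose. GNAO1 was scarce, at 2.35 ± 0.167 CPM in the second set (SD, n = 4) and 1.04 ± 0.429 CPM in the first set (SD, n = 6). The 15 list genes called between the sets, MT1L included, stand beside 17.8% of all genes called there. With the cell type markers counted in, 16 of the 72 list genes tested between the sets were called. All 15 were also called by DESeq2 and limma-voom, 7 of them in OE libraries alone and 1, HMOX1, in EV libraries alone. GNAO1, HSPA1A, MT1L, MTF2, NQO1, NUP93 and PER1 lost the call when at least 1 single library was left out, all 7 of them without EV replicate 4, and the other 8 did not.

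**Figure D5:**
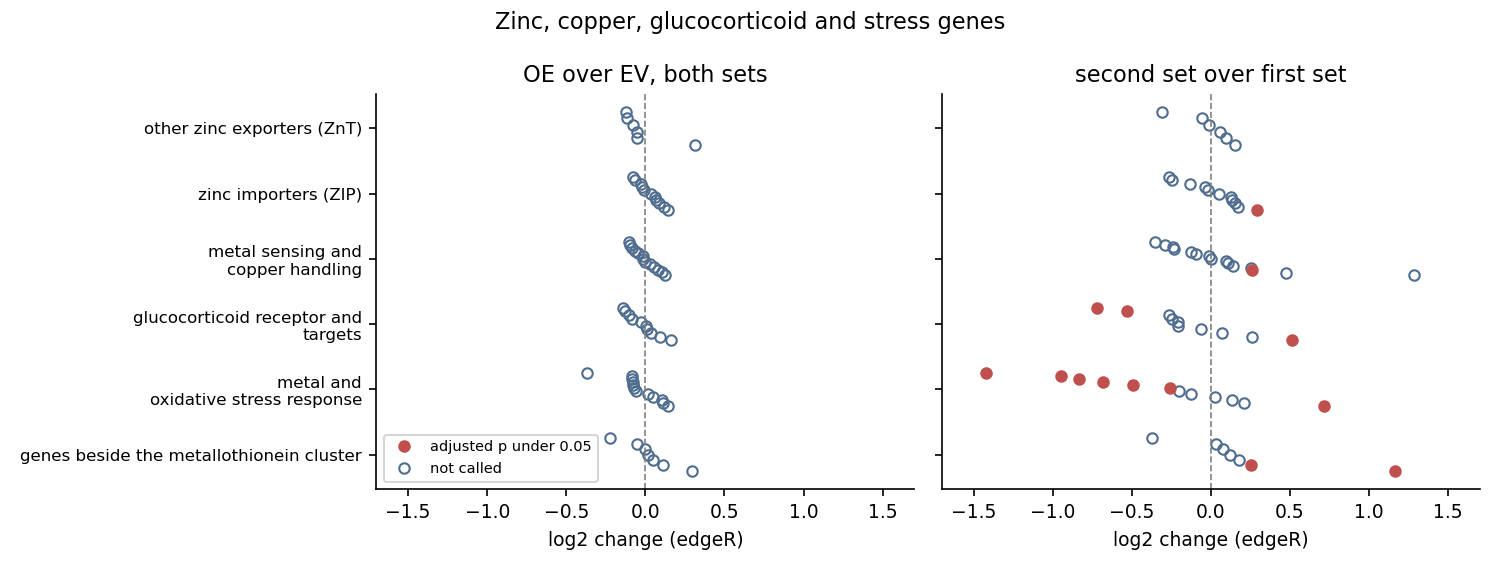
Log2 change from edgeR of each tested gene of the 6 lists, for OE over EV over both sets (left) and for the second set over the first set (right); filled points have an adjusted p under 0.05. No list gene is filled on the left, and on the right HMOX1 lies lowest at -1.42 and 7 of 12 stress genes are filled.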

How the data were processed

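The submitters' processing notes name, with build hg38, the tools featureCounts 1.5.0-p3, HISAT2 2.0.5, fastp, DESeq2 1.20.0 and CASAVA 1.8. The sources used here do not state their settings or the annotation release. Per the file headers, the authors deposited raw counts per gene, whole numbers, with gene lengths. The second deposited table also holds the authors' log2 fold changes and p-values for single pairs of libraries. Another 14 deposited columns, of FPKM or normalized values, were left out.

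The members and all gene lists were chosen with earlier results of these data known. Counts were joined by gene identifier. OE and EV were compared with edgeR 4.0.16 (R 4.3.3) by its quasi-likelihood test (TMM, filterByExpr, set as a term over both sets, Benjamini-Hochberg adjusted p under 0.05 over all genes tested). Fits within each set, of the difference between sets, of the sets (with group as a term) and of replicate 5 against 4 used the same test. The fit of replicate 5 against 4 held all 10 libraries, with the first set as a stratum of its own and group as a term. The standard error (SE) is that implied by the test. Alternatives were DESeq2 1.42.0, limma-voom (limma 3.58.1), median-of-ratios scaling, no filter, at least 10 counts in every library, the replicate number as a block, single groups and leaving out each library. The code was tested on simulated data. Named in the text are all members, from each list the 3 tested genes with the lowest p over both sets and those called between the sets, and the 5 genes most like MT2A. Other genes were named for their level or a count after their values were seen. Precision is that of the counts; the depth and the limit for a count of 0 stand with the results.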

Additional observations from a re-analysis of the deposited data

Results flagged for a closer look

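Among 69 groups of 5 libraries examined, 5 held a library far from the others by Dixon's criterion, and chance alone gives about 5% of groups. MT2A in EV replicate 2 stood at 1760 CPM, with the next EV library at 960 CPM. MT1L in EV replicate 2 stood at 31.4 CPM, with the next EV library at 19.1 CPM. MT1E in OE replicate 4 stood at 0.178 CPM, or 3 counts, with 0 in the other OE libraries. SLC39A7 in OE replicate 4 stood at 188 CPM, with the next OE library at 155 CPM. SLC30A9 in OE replicate 3 stood at 53.2 CPM, with the next OE library at 60.2 CPM.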

How the results depend on the processing

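Counts of all genes called depended on the tool, the filter and single libraries; the cause was not tested. With DESeq2 they were 6 over both sets, 1 in the second set, 76 in the first set, 9 for the difference between the sets and 231 for replicate 5 against 4. Without a filter they were 23, 12, 90, 28 and 238 in the same order. Main counts were 0, 0, 5, 1 and 106. Leaving out single libraries gave 0 to 1 in the second set, 0 to 1578 in the first set (1578 without EV replicate 2), 0 to 8 for the difference, 1297 to 3837 between the sets (main 2642) and 18 to 553 for replicate 5 against 4. EV libraries alone gave 61 genes between the sets, and the second set alone 2074 for replicate 5 against 4.

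Members called between the sets numbered 1 in the main fit, beside 17.8% of all genes. They numbered 2 without a filter, 0 in EV libraries alone (61 genes called) and 2 in OE libraries alone. The share of all genes called without a filter and in OE libraries alone is not given here, so those counts cannot be weighed. With single libraries left out they numbered 1 to 3 (1297 to 3837 genes called), with 3 without EV replicate 2, beside 25.9% of genes. For replicate 5 against 4 they numbered 0 in the main fit, beside 0.688% of genes. There they numbered 1 without a filter (238 genes), 3 in the second set alone (2074 genes) and 0 to 1 with single libraries left out (18 to 553 genes). In the first set they numbered 0 to 1 with single libraries left out, with 1 without EV replicate 2, beside 10.7% of genes. Nothing is read from these counts, since such values chose the members.

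Same-numbered OE and EV libraries deviated together weakly for numbers 1 to 3 (r = -0.11, 0.0035 and 0.16). For 4 and 5 r was 0.31, where the 2 values are one by construction, against -0.31 for differing numbers. The sources used here do not say what a number shares, so the numbers were not taken to pair the libraries. The authors' deposited comparisons do set same-numbered libraries of the second set against each other. With the number as a block, 71 genes and 2 members were called in the second set on 1 residual degree of freedom, MT2A (0.29, SE 0.05) and SLC30A1 (-0.26, SE 0.06), which supports nothing about these members, since they were chosen on such values. The block gave 1 gene in the first set and 3 for the difference.

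With single libraries left out, the log2 change of OE over EV ran from -0.11 to 0.28 for MT2A, -0.11 to 0.23 for MT1X, -0.18 to -0.09 for SLC30A1, -0.0710 to 0.18 for MT1L, -0.0345 to 0.0453 for FKBP5, -0.20 to 0.0487 for HMOX1, -0.12 to 0.0116 for NQO1, -0.0119 to 0.0872 for DNAJB1, -0.0383 to 0.27 for HSPA1A and -0.0016 to 0.21 for SRXN1. In the second set it ran from -0.0544 to 0.62 for MT2A and -0.40 to 0.50 for MT1X, in the first set from -0.30 to 0.23 and -0.12 to 0.34, and the difference for MT1X from -0.47 to 0.44. Signs also turned for FKBP5 under limma-voom (-0.00092), for MT1L under limma-voom (0.0166), without a filter (0.0017) and with the block (0.0170), and for the difference in MT1X under limma-voom (-0.0095). Depth leaves MT1A, MT1E, MT1G and MT1M without a comparison.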
